A study of Mus musculus with 3 samples.

Results

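Peg10 (gene ID 170676) is an imprinted mouse gene that descends from a retrotransposon. The data described here are the AGO2 peaks with their midpoint inside the Peg10 span on either strand, which runs from 4747306 to 4760517 on chromosome 6 (mm10, 13212 nt). There were 34 such peaks among 6911 in 4 peak lists. CIMS gave 3 of its 169 peaks, Piranha 8 of 1417, Pyicoclip 8 of 2068, and PIPE-CLIP 15 of its 3257 clusters. Peg10 was chosen by its number of peaks and its presence in every list, which 0.105% of 21900 protein-coding genes share, so both are a description with no test. No other annotated gene span held the midpoint of any of the 34 peaks.

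The peaks came from 3 HITS-CLIP libraries of P19, an embryonal carcinoma line that was established from a mouse tumour. All 3 libraries formed 1 group, were made with clone 2D4 of the AGO2 antibody, and had no control or treated counterpart. In HITS-CLIP, RNA is fixed to protein by ultraviolet light, the protein is pulled down and the attached RNA fragments are sequenced. Each list covers the series as a whole and is the work of a different peak caller, so neither the depth of a library nor a spread between libraries is known, and agreement between lists is not replication.

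AGO2 is the Argonaute protein that carries microRNAs to matching sites in messenger RNAs, usually in the 3′ untranslated region, where the messenger is then silenced. Peg10 is transcribed from the copy inherited from the father, as is its head-to-head neighbour Sgce, which is read from the opposite strand. Its messenger holds overlapping gag-like and pol-like reading frames joined by a programmed ribosomal frameshift, as in retroviruses, followed by a long 3′ untranslated region. The mouse placenta does not form properly without it. Exon and reading frame boundaries were not used here, so positions are given along the gene span and not assigned to coding or untranslated sequence.

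Of 10 markers of pluripotent cells, 3 held a peak, beside a background of 9.77% of 21900 protein-coding genes with a peak in at least 1 list. They were Lin28a with 12 peaks, Trim71 with 11 and Pou5f1 with 1. Of 4 neuron markers 1 held a peak, which was a single PIPE-CLIP cluster in Map2, on the strand opposite to the gene. Of 4 muscle markers 0 held a peak. A peak shows bound RNA and not a level, so a marker with no peak may still be expressed. The marker lists were chosen with earlier results of these data known, so the counts are a description and no check of the cells.

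The 34 peaks formed 13 separate sites when overlapping peaks were joined, and all of them lay in the 3′ part of the span. The first 6989 nt, 52.9% of the span, held no peak of any list. The span includes any introns, whose positions were not used here, so this is not a share of the messenger. The first site began at 4754295, and the last ended at 4760516, 1 nt before the annotated end of the gene. Within the 6223 nt from the first site to the end of the gene, 46.1% of the bases lay in a peak of at least 1 list. Gaps between neighbouring sites ran from 1 to 1204 nt, with a median of 163 nt.

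**Figure D1:**
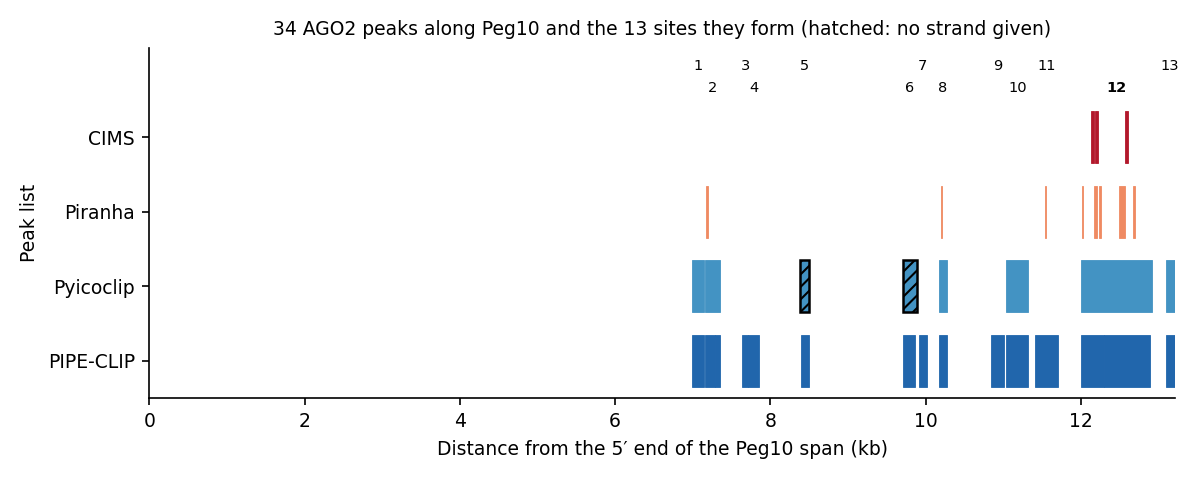
Each block is a peak, drawn to scale by its distance from the 5′ end of the Peg10 span (kb), with 1 row per peak list and the site numbers above. All 34 peaks lie beyond the first 6989 nt, and site 12, in bold, is the one with blocks in all 4 rows.

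With the span cut into 10 equal parts, numbered from the 5′ end, the share of bases inside a peak was 0% in each of the first 5 parts. It was 42.8% in part 6, where 4 sites had their midpoints, and 9.16% in part 7, which held 1 site. It was then 30.3% in part 8 and 56.6% in part 9, with 3 sites each. Part 10 reached 78.0% with 2 sites, and it held 36.0% of the 2866 covered bases of the gene (95% Wilson interval 34.2 to 37.7, which treats bases as independent although neighbouring bases share peaks). Coverage thus rose towards the 3′ end of the span from part 7 on, after a separate group of sites in part 6.

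Support by caller was uneven along the gene span. Of the 13 sites, 1 held peaks of all 4 lists, 2 held peaks of 3 lists, 6 of 2 lists and 4 of PIPE-CLIP alone. Over the 4617 merged loci of the whole series, 0.866% held all 4 lists, 5.31% held 3, 30.9% held 2 and 63% held 1. Nothing was read from the difference, since the gene was chosen for its presence in all lists. PIPE-CLIP had a cluster at all 13 sites, Pyicoclip a peak at 8, Piranha at 4 and CIMS at 1.

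The most 5′ group spanned sites 1 to 4. Site 1, at 4754295 to 4754449, had a PIPE-CLIP cluster with a score of 27 and a Pyicoclip peak with a score of 20, both starting at the same base. Site 2 followed 16 nt later at 4754466 to 4754658 and had 3 lists. Its Pyicoclip peak scored 25 and enclosed PIPE-CLIP clusters of 27 and 11, and its Piranha peak of 14, at 4754481 to 4754500, was the most 5′ Piranha peak in the gene. Sites 3 and 4, at 4754945 to 4755022 and 4755024 to 4755162, were PIPE-CLIP clusters alone, 1 nt apart, with scores of 12 and 14. These 2 and the cluster of 11 at site 2 were the lowest-scoring PIPE-CLIP clusters of the gene. The PIPE-CLIP list has a median of 14 and a minimum of 10.

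Sites 5 to 8 lay in the middle of the bound region. Site 5, at 4755686 to 4755806, had a PIPE-CLIP cluster of 27 and a Pyicoclip peak of 16, the lowest Pyicoclip score in the gene. The widest gap, 1204 nt, separated it from site 6 at 4757011 to 4757190, which scored 36 in PIPE-CLIP and 31 in Pyicoclip. The Pyicoclip peaks of sites 5 and 6 were the 2 members listed without a strand. Site 7, at 4757218 to 4757324, was a PIPE-CLIP cluster alone with a score of 23. Site 8, at 4757473 to 4757586, was the other site with 3 lists, scoring 21 in PIPE-CLIP, 25 in Pyicoclip and 12 in Piranha, whose peak lay at 4757501 to 4757520. Site 8 was the only site where the Pyicoclip score was above that of PIPE-CLIP, although the scales of the callers need not be the same.

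Sites 9 to 11 lay between 1501 and 2198 nt before the end of the gene, counted from their 3′ edges. Site 9, at 4758149 to 4758319, was a PIPE-CLIP cluster alone that scored 18. Site 10, at 4758348 to 4758625, scored 56 in PIPE-CLIP and 33 in Pyicoclip. Site 11, at 4758718 to 4759016, scored 53 in PIPE-CLIP and had a Piranha peak of 12 at 4758841 to 4758860, but no Pyicoclip peak. It was the highest-scoring PIPE-CLIP cluster of the gene without a Pyicoclip counterpart. The Pyicoclip and PIPE-CLIP scores of site 10 were exceeded in the gene only by those of site 12.

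Site 12, at 4759308 to 4760219, was the site of all 4 lists and the widest of the gene, with 912 nt and 11 of the 34 peaks. Its PIPE-CLIP clusters scored 71 at 4759315 to 4759599 and 231 at 4759605 to 4760200, separated by 5 nt. Its single Pyicoclip peak, with a score of 74, spanned both. The 5 Piranha peaks there scored between 10.25 and 16, and the highest lay at 4759541 to 4759560. The 3 CIMS peaks scored 15, 30 and 30, from 5′ to 3′, and had their centres at 4759460, 4759507 and 4759900. The neighbouring centres were thus 47 and 393 nt apart.

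**Figure D2:**
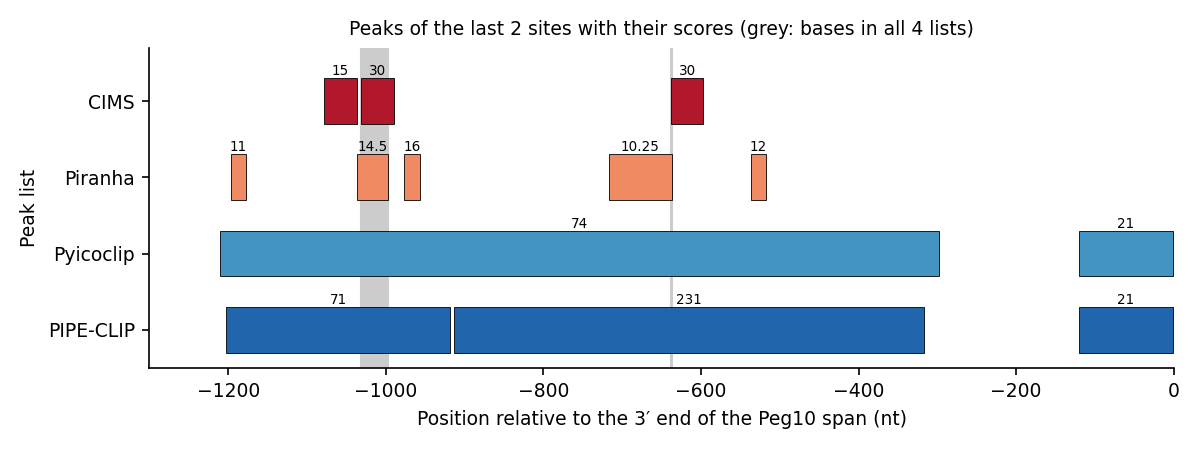
Peaks of sites 12 and 13 by position relative to the 3′ end of the Peg10 span (nt), with 1 row per list and the caller's score above each block. Grey bands mark the 35 bases held by all 4 lists, 34 of them in 1 run under the second CIMS peak and 1 at the edge of the third.

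Although site 12 was shared by all lists, few of its bases were. All 4 lists met on 34 nt at 4759487 to 4759520, where the second CIMS peak overlapped the 40-nt Piranha peak at 4759481 to 4759520. They met again on 1 nt at 4759880, where the third CIMS peak, 4759880 to 4759920, touched the last base of the 80-nt Piranha peak at 4759801 to 4759880. The first CIMS peak ended at 4759480, directly before the 40-nt Piranha peak, and overlapped no Piranha peak. Across the series, 31 of the 40 loci of all 4 lists had at least 1 base in every list, with a median of 20 bases over the 40 loci. The 35 bases of Peg10 ranked 7th among them and its width of 912 nt ranked 3rd, against a median width of 209 nt.

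CIMS finds sites from crosslinking-induced mutations, which are read errors at the crosslinked base, and its peak names carry 2 numbers, k and m. In each of the 3 Peg10 peaks m was 3, the lowest value in the list, as in 51.5% of the 169 CIMS peaks. The score equalled k in all 169. The meaning of k and m is not given in the sources used here.

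Site 13, at 4760398 to 4760516, closed the gene 178 nt after site 12. Its Pyicoclip peak and PIPE-CLIP cluster had identical edges and the same score of 21. It had neither a CIMS nor a Piranha peak. The highest scores of the gene were therefore at site 12 and not at the site nearest to the 3′ end.

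**Figure D3:**
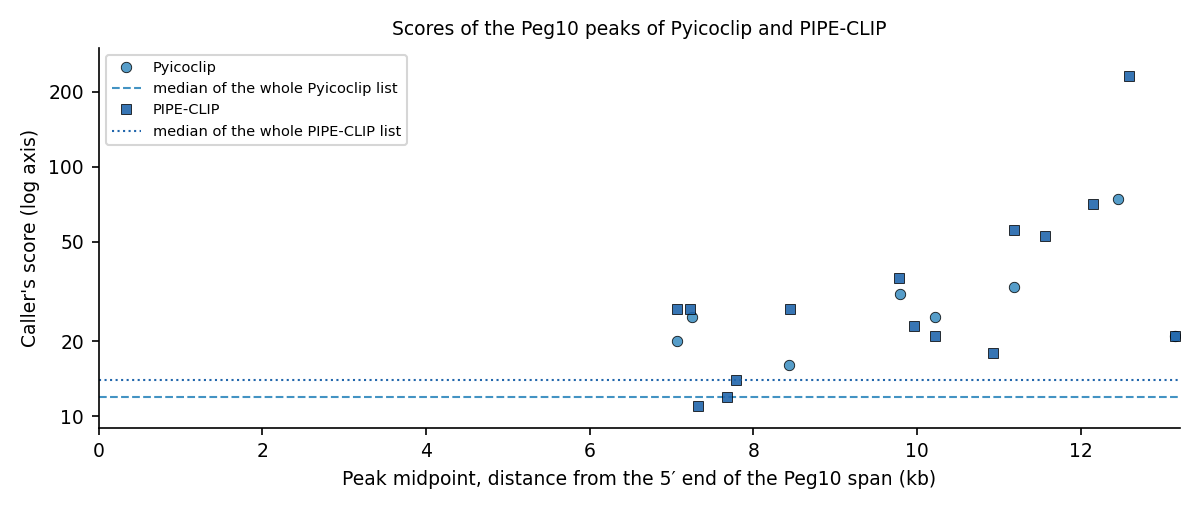
Score of each Pyicoclip peak (circles) and PIPE-CLIP cluster (squares) on a log axis against its midpoint, as distance from the 5′ end of the Peg10 span (kb); dashed and dotted lines are the medians of the whole lists, 12 and 14. Scores rise to 74 and 231 at site 12 and are 21 for both lists at site 13, where the symbols coincide.

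Within their own lists, the Peg10 peaks of Pyicoclip and PIPE-CLIP stood high, while those of CIMS and Piranha stood near the middle. The median percentile of the score was 92.1 for the 8 Pyicoclip peaks and 90.7 for the 15 PIPE-CLIP clusters. All 8 Pyicoclip peaks and 12 of the 15 PIPE-CLIP clusters scored above the median of their list. The median percentile was 51.2 for the 8 Piranha peaks, of which 3 were above the list median, and 53.3 for the 3 CIMS peaks, of which 2 were above it. With mitochondrial and ribosomal peaks left out, the median rose to 73.9 in CIMS. It was then 52.8 in Piranha, 92.3 in Pyicoclip and 91.4 in PIPE-CLIP. Scores came from the same libraries and were not tested.

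The cluster of 231 ranked 9th of 3257 in PIPE-CLIP. All 8 clusters with a higher score lay in mitochondrial or ribosomal RNA, so no cluster with its midpoint in another nuclear protein-coding gene span scored higher. The clusters of 71, 56 and 53 ranked 42nd, 57th and 63rd, each tied with at least 1 other. The Pyicoclip peak of 74 ranked 27th of 2068, with 1 tie. Of the 26 Pyicoclip peaks above it, 4 were ribosomal and 10 lay in nuclear protein-coding gene spans.

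Wider peaks tended to score higher in these lists, with a Spearman correlation of width and score of 0.39 over the 2068 Pyicoclip peaks and 0.59 over the 3257 PIPE-CLIP clusters, a description over peaks that share their libraries. Peg10 peaks had a median width of 165.5 nt in Pyicoclip, against 29 nt for the list, and of 139 nt in PIPE-CLIP, against 85 nt. Ranked only among peaks of a width within 1.5 times its own, the cluster of 231 fell from percentile 99.7 to 71.9. The Pyicoclip peak of 74 fell from 98.7 to 37.5. The medians fell to 78.7 in Pyicoclip and 80.3 in PIPE-CLIP, so most Peg10 peaks of these lists still scored above the middle of their width class. How far width sets the score was not tested.

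**Figure D4:**
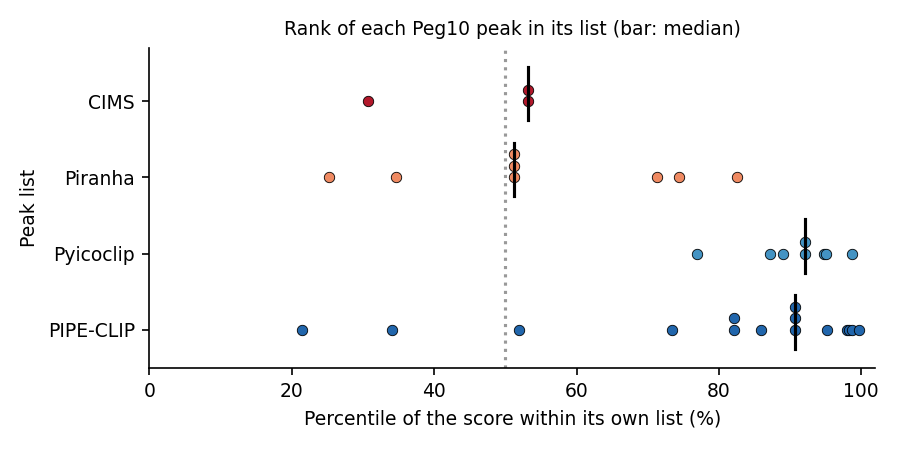
Percentile of each Peg10 peak's score within its own list, with 1 point per peak, equal values stacked, a bar at the median and a dotted line at percentile 50. The medians are 92.1 for Pyicoclip and 90.7 for PIPE-CLIP, and 51.2 and 53.3 for Piranha and CIMS.

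The Piranha scores need a second reading, because the scores of wide Piranha peaks behave as averages over bins. All Piranha peaks were whole numbers of 20-nt bins wide, and 1298 of 1417 were 1 bin wide. Of the 119 wider peaks, 68 had a score that was not whole to within 0.01, and the score multiplied by the number of bins was whole for all 119. Summed over bins in this way, the 80-nt Peg10 peak at site 12 came to 41 and the 40-nt peak to 29. The 6 Peg10 peaks of 1 bin had 11 to 16. The peak with the lowest Piranha score in the gene, 10.25, was thus the one with the highest sum. No Piranha score was below 10, so a wide peak has a high sum by its width alone. Ranked only among Piranha peaks of like width, this peak fell from percentile 25.2 to 2.04. The 40-nt peak fell from 74.4 to 50.6.

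Most bases of Peg10 in Pyicoclip also lay in PIPE-CLIP, which covered more of the gene. PIPE-CLIP covered 2786 of the 2866 covered bases and Pyicoclip 2068, and 1988 bases, 69.4%, lay in both. PIPE-CLIP covered 798 bases without Pyicoclip, and Pyicoclip 80 without PIPE-CLIP. At the 8 sites of both lists, the starts agreed to within 2 nt at 6 and the ends at 5. The largest mismatch was at site 6, where the Pyicoclip peak ran 27 nt further. Over these 8 sites, the Spearman correlation of the Pyicoclip score with the best PIPE-CLIP score was 0.70, a description of sites that share their libraries.

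Only 35 bases, 1.22% of those covered, lay in all 4 lists, while 9.53% lay in 3, 59.3% in 2 and 29.9% in 1. Piranha covered 240 bases and CIMS 123. All 8 Piranha peaks overlapped a PIPE-CLIP cluster, against 23.5% of the whole Piranha list (95% Wilson interval 21.4 to 25.8). All 8 Pyicoclip peaks did so as well, against 30.7% of that list (28.7 to 32.7). The Peg10 peaks of Pyicoclip had a median width of 165.5 nt, against 29 nt for the list, and the shares here were not matched for width. Of the 15 PIPE-CLIP clusters, 10 overlapped a Pyicoclip peak and 11 at least 1 other list, against 20.8% of that list (19.5 to 22.2) for the latter. Of the 8 Pyicoclip peaks, 3 overlapped a Piranha peak, below the 63.5% of that list (61.4 to 65.5). The single Pyicoclip peak at site 12 counts once here, although it took in 5 of the 8 Piranha peaks. In the other direction, 7 of the 8 Piranha peaks overlapped a Pyicoclip peak, near the 95.7% of that list (94.5 to 96.6). These differences were not tested, since the gene was chosen for its presence in all lists.

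Every stranded Peg10 peak was on the plus strand, the strand of the Peg10 transcript. There were 32 of them, and the other 2 had no strand. In CIMS, Piranha and Pyicoclip the plus strand held 60.9%, 49.8% and 51.5% of all stranded peaks, but in PIPE-CLIP only 13% (95% Wilson interval 11.8 to 14.2), or 422 of 3257 clusters. The 15 Peg10 clusters were 3.55% of these 422. On chromosome 6, they were 15 of 28 plus-strand clusters, beside 178 on the minus strand.

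The same clusters were then sorted by the direction of their genes. Leaving out clusters in more than 1 gene span, and counting only protein-coding genes of known direction, 1863 of 1876 PIPE-CLIP clusters in minus-strand genes were on the strand of the gene (99.3%, 98.8 to 99.6). In plus-strand genes 200 of 224 were (89.3%, 84.6 to 92.7). Clusters therefore mostly followed their genes, but they fell in 1000 minus-strand genes and in only 133 plus-strand genes. Peg10 was not among these, since its direction is not in that table. Of 118 protein-coding genes with at least 5 PIPE-CLIP clusters, 104 had minus-strand clusters only, 4 had both and 10, including Peg10, had plus-strand clusters only. Peg10 had the most plus-strand clusters of any protein-coding gene, followed by Gigyf1 with 9 and Zbtb7a with 8.

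In the other lists, antisense peaks were common. In plus-strand genes, 71.5% of stranded Pyicoclip peaks (67.1 to 75.6) and 57.9% of Piranha peaks (51.7 to 63.8) were on the strand of the gene, as were 21 of 26 CIMS peaks. For Peg10 the counts were 6 of 6, 8 of 8 and 3 of 3. Peaks of 1 transcript are not independent, so the difference was not tested.

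Peg10 had more bases in peaks than any other of the 2140 protein-coding genes with a peak. Its 2866 nt compared with 2370 nt for Slc2a3, which encodes a glucose transporter, and with a median of 88 nt. By the number of separate sites it ranked behind Igf2bp1 with 15 and Cnot6 and Plekhm1 with 14 each, and level with Msi2 and Pmepa1. These 5 genes had peaks in 2 or 3 lists. In share of the span covered, 21.7%, it ranked 11th. Igf2bp1, Cnot6 and Plekhm1 had 15 to 21 peaks in all, against 34 for Peg10, and so fewer peaks per site.

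**Figure D5:**
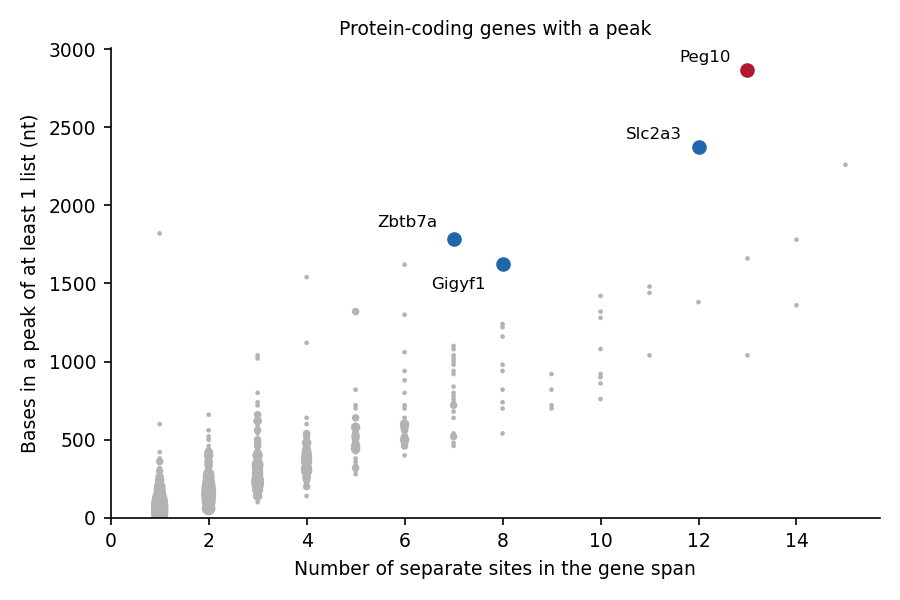
Each grey point stands for the protein-coding genes with that number of separate sites (x axis) and that number of bases in peaks (y axis, nt, rounded to 20 for grey points), and larger points hold more genes. Peg10 (red) is the highest point, at 13 sites and 2866 nt; the 3 genes with the most similar peak counts are in blue.

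The genes with the most similar peak counts over the 4 lists, by Euclidean distance of log2(peaks + 1) among genes present in every list, were Slc2a3, Gigyf1 and Zbtb7a. Their distances were 1.34, 1.36 and 2.08, each over 4 lists. Slc2a3 had 1 CIMS, 4 Piranha, 10 Pyicoclip and 15 PIPE-CLIP peaks, all on the minus strand. Gigyf1, which encodes a protein that takes part in translational repression, had 3, 3, 7 and 9 in the same order. Zbtb7a, a transcriptional repressor gene, had 1, 2, 6 and 8 and no site of all 4 lists. Read in the direction of their peaks, the last 10% of the span held 75.2% of the covered bases in Slc2a3, 52.0% in Gigyf1 and 55.2% in Zbtb7a, against 36.0% in Peg10. This last part was 7456 nt in Slc2a3, 1767 nt in Gigyf1, 1700 nt in Zbtb7a and 1321 nt in Peg10. In Ccng2, which replaced Slc2a3 among the 3 when shares of peaks per list were compared, it was 866 nt and held 33.7%, below Peg10. The spans differ in length, and no difference was tested.

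The neighbours of Peg10 in and beside the imprinted region of chromosome 6 carried 1 peak each at most. Of 12, 2 held a peak, and the median was 0, beside the background of 9.77% of protein-coding genes. Casd1, which encodes a sialic acid O-acetyltransferase, had 1 Pyicoclip peak of 12, at 4642234 to 4642346 and on the strand of the gene. Its 3′ edge lies 104960 nt before the Peg10 span, and no listed peak lay in between. Ppp1r9a, which encodes the actin-binding protein neurabin, had 1 Pyicoclip peak of 10 on the strand opposite to the gene. Its peak, at 5132980 to 5133004, was the next one after Peg10, 372463 nt further on. Sgce, whose span ends 101 nt from that of Peg10, had none in any list.

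Other genes derived from the same kind of retrotransposon, the sushi-ichi group of Ty3/gypsy elements, carried 2 peaks at most. Of 10, only Rtl6 held a peak, a share near the background, and the median was 0. Its Piranha and Pyicoclip peaks, both with a score of 11, lay on the plus strand between 84556381 and 84556419 on chromosome 15. Rtl6 is a minus-strand gene in the table used, so these peaks were antisense to it.

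Of 28 other imprinted genes, 8 held a peak, with a median of 0 peaks. Of these 28, 21 are protein-coding and 7 of the 21 held a peak, beside the background of 9.77% of protein-coding genes. Plagl1, which encodes a zinc finger protein that restrains growth, came closest to Peg10, with 9 peaks in 3 lists. All 9 were on the strand of the gene and lay at 13129406 to 13131686, in the last part of its span of 13090832 to 13131694 on chromosome 10. Its highest PIPE-CLIP cluster scored 43 at 13130231 to 13130457, where a Pyicoclip peak scored 16. Plagl1 had 6 separate sites and 884 nt in peaks, and no CIMS peak.

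The remaining members had 1 to 5 peaks. Gnas had 5 PIPE-CLIP clusters, all on the minus strand and shared with the span of the antisense gene Gnasas1, so they lie opposite to Gnas. Grb10, which encodes an adaptor that dampens insulin signalling, Igf2, the gene of a fetal growth factor, and Snrpn, which encodes a spliceosome protein, had 1 PIPE-CLIP cluster each on the strand of the gene. The cluster in Snrpn also lay in the spans of Snhg14 and Snurf. Nnat had 1 PIPE-CLIP cluster on the opposite strand, in a place also covered by the span of Blcap. Magel2 had 1 Pyicoclip peak on the strand of the gene, in a place also covered by the span of Gm32061.

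Mirg, the last of the 8, is a host of imprinted microRNAs on chromosome 12, and its peaks fell on a mature microRNA, the sequence of which is shown because it names the bound RNA. The Pyicoclip peak at 109742421 to 109742450 held all 25 nt of miR-541-5p, at 109742422 to 109742446 on the plus strand, and the Piranha peak at 109742421 to 109742440 held 19 of them. Both scored 10, the lowest score in the lists, and neither reached miR-541-3p. The sequence is from RefSeq (GRCm38.p6), 5′ to 3′, with the seed, bases 2 to 8, in capitals.
mmu-miR-541-5p: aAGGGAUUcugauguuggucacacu
In contrast, all 34 Peg10 peaks lay where no microRNA gene is annotated. Their midpoints were in the span of the messenger RNA gene alone.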

How the data were processed

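Per the labels' protocols, AGO2-bound RNA was turned into small RNA libraries, PCR-amplified, size-selected and read on an Ion Proton. The submitters' processing notes name cutadapt, Novoalign and the build mm10. Caller settings, and how the 3 libraries were joined, are not stated there. The authors deposited 4 peak lists, each with a score per peak and no stated unit, which was used only to describe and rank peaks within a list.

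A peak was a member if its midpoint lay in the Peg10 span of the RefSeq table for GRCm38.p6, whose coordinates are those of mm10. Positions count from 1. Sites are peaks joined by at least 1 nt of overlap, strand ignored. Peaks with no strand matched either strand. Overlaps between lists needed 1 nt on the same strand. Gene directions came from a RefSeq promoter table that does not list Peg10; its plus-strand direction is background knowledge. Percentiles count ties at their middle. Wilson intervals are at 95% and treat peaks or bases as independent, although these share libraries and transcripts. They cover counting error at most, and not the change from leaving out a list.

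The design holds no test, since there is 1 group and no value per library. Peg10 and all gene lists were chosen with earlier results of these data known. Named were Peg10, members of the gene lists with a peak, and the 3 genes of most similar counts; other genes were named after their values were seen. Seed matches at Peg10 sites were planned and not run, since the sequence of the gene was not used here. Joining, gene assignment and coverage were tested on 20 simulated sets of peaks and recovered in 20. Calculations used Python 3.11.15, numpy 2.4.6, pandas 2.3.3, scipy 1.17.1 and matplotlib 3.10.9.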

Additional observations from a re-analysis of the deposited data

How the results depend on the processing

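The 13 Peg10 sites became 9 when gaps of up to 50 nt were bridged, 12 with peaks at or above the median score of their list, and 9 to 15 when each list was left out in turn. The other settings for membership and strand gave 13. Sites held by every list used numbered 3 without CIMS and 2 without Pyicoclip, against 1 of all 4 lists. The share of covered bases in the last 10% of the span was 49.4% without PIPE-CLIP, against 36.0%, and 35.9 to 37.0% under the other settings. The median score percentile was 73.9 in CIMS without mitochondrial and ribosomal peaks, against 53.3, and 78.7 in Pyicoclip among peaks of like width, against 92.1. By shares of peaks per list, 2 of the 3 most similar genes were the same, with Ccng2 in place of Slc2a3. Where at least 50% of a peak had to be covered by 1 peak of another list, 10 of 15 PIPE-CLIP clusters were shared with any other list, against 11. By single lists, 0 of 8 Pyicoclip peaks were then shared with Piranha, against 3. Likewise, 0 of 15 PIPE-CLIP clusters were shared with Piranha, against 5, and 0 with CIMS, against 2. Overlaps between Pyicoclip and PIPE-CLIP stayed the same. Piranha and CIMS peaks in the gene were at most 80 and 41 nt wide, so they can rarely cover 50% of a wider peak. Chosen after seeing the data, leaving out lists gave 0 neighbours with a peak without Pyicoclip, against 2, and 3 other imprinted genes without PIPE-CLIP, against 8. No paired analysis was possible because all libraries form 1 group and no value per library was used. Leaving out a library was not possible for the same reason. Depth per library is unknown, so a stretch of Peg10 with no listed peak is not shown to be unbound, and no list held a score below 10.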

Other observations

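The names of PIPE-CLIP clusters carry running numbers that increase with position along each chromosome in the list, up to 222973, of which 3257, or 1.46%, are listed. From the first to the last Peg10 cluster the numbers run from 166912 to 166950, which is 39 numbers over 6222 nt, and 15 of them, 38.5%, are listed. The 24 numbers that are not listed all fall between clusters of different sites. This was nearly set in advance, since only sites 2 and 12 hold 2 clusters, and these lie 3 and 5 nt apart. Of the 24, 7 fall in the 1207 nt between the clusters of sites 5 and 6, and 6 in the 563 nt between those of sites 8 and 9. The scores of the clusters with these numbers were not analysed here. The same count was 15 of 29 numbers in Slc2a3, 9 of 52 in Gigyf1 and 8 of 19 in Zbtb7a. Each range begins and ends at a listed cluster of a gene picked for its peaks. A share above that of the whole list was thus set by this choice.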
